A study of Egretta garzetta and Nycticorax nycticorax with 12 samples.

Results

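Of the 299 symbols on the study's list of vision genes, 245 were paired with a gene model of both *N. nycticorax*, the black-crowned night heron, and *E. garzetta*, the little egret, in the expression files of the olfactory epithelium (OE). The 32 genes described here are those of the 245 whose mean level over 6 birds lay below 1 TPM (transcripts per 1000000) in *N. nycticorax* and again in *E. garzetta*. Of the other paired genes, 206 reached 1 TPM in at least 1 species, and 7 that were below it were left out by the rule of selection. The levels themselves chose these genes, so that their low levels, and the differences in level between the species, are a description and were not tested.

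OE RNA of 3 nestlings (birds 1 to 3) and 3 adults (birds 4 to 6) of each species was sequenced, 1 library per bird and 12 in all. The nestlings were under 15 cm in body length, with olfactory bulbs that were not yet developed, whereas the adults had developed bulbs and measured over 40 cm in *N. nycticorax* and over 50 cm in *E. garzetta*. Nestlings were taken 1 per nest and adults were captured at a separate site, and the effects of stage and site cannot be told apart.

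Vision starts in the photoreceptors of the retina, where light changes the shape of an opsin, the opsin activates the G protein transducin, and transducin switches on a phosphodiesterase (PDE6) that breaks down cyclic GMP and lets the cation channels close. Guanylate cyclases and their calcium-sensing activators restore the cyclic GMP, and exchangers remove calcium. Olfactory neurons use a pathway of the same general plan, with odorant receptors, another G protein and cyclic AMP, while supporting and basal cells make up the rest of the epithelium.

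The vision genes were grouped by role in lists drawn up here, and the 32 genes were unevenly spread over these lists. They included 3 of the 4 paired opsins (OPN4, OPNP and RGR), 9 of 17 phototransduction genes, 8 of 13 genes for synapses, channels and transmitters, 3 of 10 lens genes, 5 of 23 transcription factors, 2 of 12 genes of photoreceptor structure, 1 of 5 retinoid genes (STRA6) and 1 of 13 genes of matrix and cornea (MEGF11). None of the 24 paired signalling ligands and receptors was among them. The remaining paired genes, on 123 gene models in *N. nycticorax* and 124 in *E. garzetta*, were in no list, and none of the 32 was among these. They include the 7 genes below 1 TPM that the rule left out, so these shares depend on how the lists were drawn.

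Reads on annotated transcripts came to between 10530972 and 16326012 read equivalents per bird (coverage times coding length, divided by the read length of 150 bp). The basal and supporting cell markers SOX2 and PAX6 together had 67.5 to 229 TPM in 11 of the birds and 11.8 TPM in adult 5 of *E. garzetta*. SOX2 was above 1 TPM in every bird, but PAX6 was not in every adult of *E. garzetta*. KERA and LUM, listed as markers of the corneal stroma, together had 95.4 to 482 TPM in *N. nycticorax* and 492 to 1732 TPM in *E. garzetta*. LUM was above 1 TPM in every bird, but KERA was not in every nestling of *N. nycticorax*. The highest sum of KERA and LUM was also that of adult 5 of *E. garzetta*. That library and nestling 2 of *N. nycticorax* stood apart from the rest. Their median Spearman correlation with the other birds of the species was 0.877 and 0.779, against 0.889 to 0.945 for the other birds, and the median gene above 0 in nestling 2 of *N. nycticorax* had 9.31 TPM against 20.7 to 27.1 TPM in its species. Without both libraries, the same selection gave 32 genes, of which 31 were shared, with CRYAA in place of TRPM1. In whole tissue, fewer cells of a type and less RNA per cell cannot be told apart.

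The 32 genes were low by the rule of selection. Their mean levels had medians of 0.209 TPM (*N. nycticorax*) and 0.142 TPM (*E. garzetta*). The medians over all genes below 1 TPM were 0.1998 and 0.0774 TPM in the same order, so the 32 genes were not low among these. The median over all 13361 and 16585 genes was 21.0 and 12.5 TPM, and that of the 245 paired vision genes 15.1 and 14.9 TPM. The rule itself places the 32 genes below these levels. At least 1 bird had more than 1 TPM for 9 of the genes in *N. nycticorax*, at most to 1.89 TPM (STRA6, adult 6), and for 7 in *E. garzetta*, at most to 2.72 TPM (GJA10, adult 6). Summed over 6 birds, 824 read equivalents lay on these gene models in *N. nycticorax*, and 1297 did in *E. garzetta*. For 16 of the genes in *N. nycticorax* and 11 in *E. garzetta*, more than 50% of the summed TPM came from 1 bird.

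**Figure D1:**
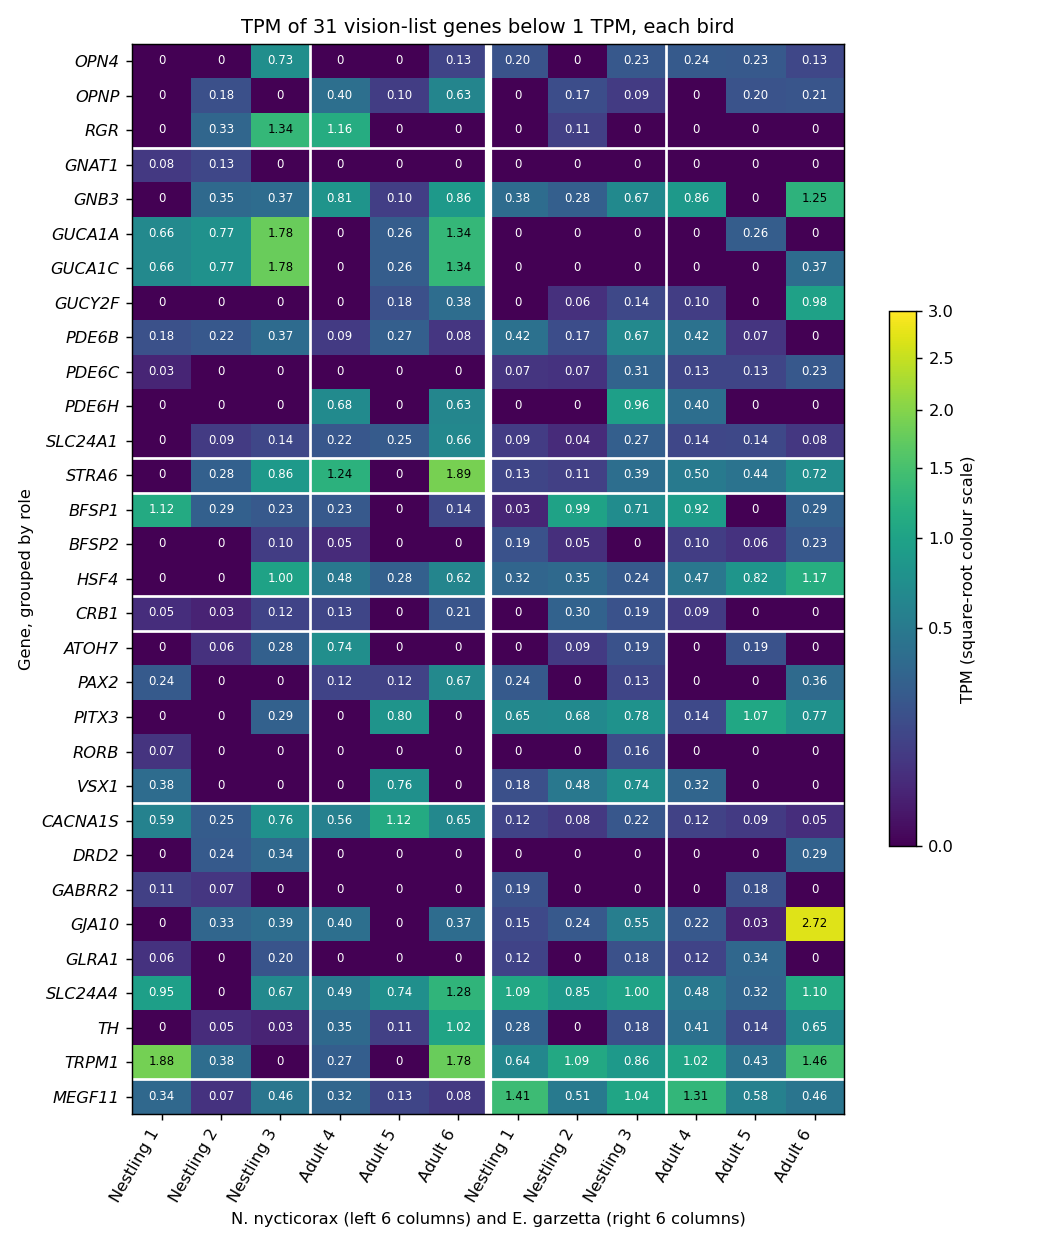
TPM of 31 of the 32 genes (rows, grouped by role) in the 12 birds (columns), as numbers and on a square-root colour scale. Entries of 0 are scattered over both stages of both species, and the highest entry is GJA10 in adult 6 of *E. garzetta* at 2.72 TPM.

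The opsins were at or near 0 in most birds. OPN4 (melanopsin, the light sensor of intrinsically photosensitive retinal ganglion cells) had 0, 0 and 0.734 TPM in the *N. nycticorax* nestlings 1, 2 and 3 and 0, 0 and 0.127 TPM in adults 4, 5 and 6. In *E. garzetta* it had 0.197, 0 and 0.227 TPM in the nestlings and 0.244, 0.234 and 0.134 TPM in the adults. A single *N. nycticorax* nestling therefore carried most of its reads in that species, while 5 of the 6 birds of *E. garzetta* had similar low values and the stages overlapped. OPNP (pinopsin, the opsin of the bird pineal gland) had 0, 0.180 and 0 TPM in nestlings and 0.399, 0.0991 and 0.626 TPM in adults of *N. nycticorax*, and 0, 0.167 and 0.0905 TPM against 0, 0.197 and 0.208 TPM in *E. garzetta*. Nestling 2 of *N. nycticorax* lay between its adults, and in *E. garzetta* the stages overlapped as well. RGR, an opsin of the retinal pigment epithelium and Müller cells that helps to regenerate the chromophore, was listed at 0 in 8 birds. It had 0.326 and 1.34 TPM in nestlings 2 and 3 and 1.16 TPM in adult 4 of *N. nycticorax*, and 0.106 TPM in nestling 2 of *E. garzetta*, where 0.960 read equivalents lay behind it.

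Among the G protein genes, GNAT1, the alpha subunit of rod transducin, was above 0 in 2 birds of the 12, with 0.0815 and 0.134 TPM in nestlings 1 and 2 of *N. nycticorax*. These values rested on 0.940 and 2.74 read equivalents. GNAT1 was listed at 0 in all 6 birds of *E. garzetta*, where 3 read equivalents, the limit that a count of 0 allows (for counting error only), correspond to 0.176 to 0.251 TPM. Both *N. nycticorax* values lay below this range, so no difference between the species can be read from them. The nearest gene model to GNAT1 lies 2393 bp away on its scaffold in *E. garzetta* and 2604 bp away in *N. nycticorax*, and these neighbours had mean levels of 249 and 333 TPM. GNB3, the beta subunit found with cone transducin, was seen far more often. It had 0, 0.352 and 0.373 TPM in nestlings and 0.805, 0.105 and 0.861 TPM in adults of *N. nycticorax*, and 0.376, 0.278 and 0.675 TPM against 0.861, 0 and 1.25 TPM in *E. garzetta*. Adults 4 and 6 were above the nestlings in both species, but adult 5 was low or at 0 in both, so that the stages overlapped.

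Of the PDE6 genes, PDE6B (the beta catalytic subunit of the rod enzyme) was above 0 in 11 birds. It had 0.183, 0.225 and 0.366 TPM in nestlings and 0.0857, 0.272 and 0.0756 TPM in adults of *N. nycticorax*, and 0.417, 0.168 and 0.669 TPM against 0.425, 0.0703 and 0 TPM in *E. garzetta*. The stages overlapped in both species. PDE6C, the catalytic subunit of the cone enzyme, was above 0 in all 6 birds of *E. garzetta*, between 0.0651 and 0.305 TPM, and in nestling 1 alone of *N. nycticorax*, at 0.0331 TPM or 0.933 read equivalents. Its model in *E. garzetta* is the only one among the 32 that overlaps another gene model, which had a mean of 0.507 TPM, and whether reads were counted by strand is not stated in the sources used here. PDE6H, the inhibitory subunit of the cone enzyme, was above 0 in adults 4 and 6 of *N. nycticorax* (0.682 and 0.629 TPM) and in nestling 3 and adult 4 of *E. garzetta* (0.957 and 0.395 TPM). With a coding length of 207 bp, these values rested on 1.75, 1.43, 3.23 and 1.05 read equivalents. In *E. garzetta* its identifier is also given to PDE6G, the rod counterpart, so the values cannot be assigned to either of them.

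The genes that restore cyclic GMP were low as well. GUCA1A and GUCA1C code for guanylate cyclase activating proteins, which sense the fall of calcium in the light. In *N. nycticorax* both symbols carry the same identifier, which had 0.665, 0.767 and 1.78 TPM in nestlings and 0, 0.262 and 1.34 TPM in adults. This was the highest mean of the phototransduction genes described here in that species (0.803 TPM). All nestlings were above 2 of the adults, but adult 6 lay between them. Unless stated otherwise, counts and shares of genes in *N. nycticorax* count this 1 model for each of the 2 symbols. In *E. garzetta*, where the models are separate, GUCA1A was above 0 only in adult 5 (0.264 TPM) and GUCA1C only in adult 6 (0.375 TPM). GUCY2F, a guanylate cyclase of photoreceptors, was listed at 0 in the 3 nestlings and adult 4 of *N. nycticorax* and had 0.180 and 0.382 TPM in adults 5 and 6. In *E. garzetta* it had 0, 0.0566 and 0.139 TPM in nestlings and 0.0969, 0 and 0.979 TPM in adults. Adult 6 had the highest value in both species, and the adults overlapped the nestlings.

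SLC24A1, the sodium, calcium and potassium exchanger of rods, had 0, 0.0925 and 0.137 TPM in nestlings and 0.220, 0.248 and 0.655 TPM in adults of *N. nycticorax*. Every adult was above every nestling there. In *E. garzetta* it was above 0 in all 6 birds, with 0.0936, 0.0441 and 0.275 TPM in nestlings and 0.138, 0.141 and 0.0807 TPM in adults, and the stages overlapped.

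STRA6, the membrane receptor through which cells take up retinol, had 0, 0.285 and 0.864 TPM in nestlings and 1.24, 0 and 1.89 TPM in adults of *N. nycticorax*. In *E. garzetta* it had 0.133, 0.109 and 0.389 TPM in nestlings and 0.5, 0.436 and 0.722 TPM in adults. The adults of *E. garzetta* were all above the nestlings. Adult 5 of *N. nycticorax* was at 0, but 3 read equivalents on its model of 285 bp correspond to 0.874 TPM in that bird. This lies above every *E. garzetta* value, so the 0 cannot be set against the adults of *E. garzetta*.

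The lens genes were the beaded filament proteins BFSP1 and BFSP2 and the lens heat shock factor HSF4. HSF4 had the highest mean of them in both species, with 0, 0 and 0.999 TPM in nestlings and 0.483, 0.279 and 0.622 TPM in adults of *N. nycticorax*, and 0.316, 0.348 and 0.239 TPM against 0.468, 0.820 and 1.17 TPM in *E. garzetta*. The adults of *E. garzetta* were again all above the nestlings, whereas nestling 3 of *N. nycticorax* was above every other bird of its species. BFSP1 had 1.12, 0.285 and 0.231 TPM in nestlings and 0.234, 0 and 0.140 TPM in adults of *N. nycticorax*, and 0.0319, 0.989 and 0.714 TPM against 0.923, 0 and 0.289 TPM in *E. garzetta*. Adult 5 was at 0 in both species and the stages overlapped. BFSP2 was above 0 in 7 birds, at no more than 0.226 TPM.

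The other roles had few reads, with the exception of some synapse and channel genes, of MEGF11 and, in *E. garzetta*, of PITX3. Of the photoreceptor structure genes, CRB1 (a polarity protein of photoreceptors and Müller cells) was above 0 in 8 birds, between 0.0301 and 0.296 TPM. Among the transcription factors, RORB (a nuclear receptor of photoreceptor development) was above 0 in 2 birds, ATOH7 (needed for retinal ganglion cells) and VSX1 (a factor of bipolar cells) in 6 each, and PAX2 (optic stalk) in 7. PAX2 had the highest mean of them in *N. nycticorax*, 0.191 TPM, of which 58.2% came from adult 6. PITX3, a factor of lens development, had the highest in *E. garzetta*, where it was above 0 in all 6 birds at 0.653, 0.675 and 0.781 TPM in nestlings and 0.144, 1.07 and 0.771 TPM in adults. In *N. nycticorax* it was above 0 in 2 birds, nestling 3 (0.288 TPM) and adult 5 (0.802 TPM). In both species the last exon of PITX3, which is also most of its coding length, held most of its reads. It took 100% of 10.3 read equivalents with 73.2% of the coding length in *N. nycticorax*. In *E. garzetta* it took 84.1% of 47.3 with 64.0%.

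CACNA1S and MEGF11 were the 2 genes above 0 in all 12 birds. CACNA1S, the pore of the calcium channel of skeletal muscle, had 0.587, 0.254 and 0.757 TPM in nestlings and 0.565, 1.12 and 0.652 TPM in adults of *N. nycticorax*, but 0.123, 0.0808 and 0.221 TPM and 0.116, 0.0884 and 0.0504 TPM in *E. garzetta*. Every *N. nycticorax* value was above every *E. garzetta* value, and within each species the stages overlapped. The share of the paired vision genes with such a separation is not given here, so whether it is unusual cannot be told. MEGF11, which spaces interneurons in the mouse retina, had 0.345, 0.0651 and 0.464 TPM and 0.323, 0.130 and 0.0837 TPM in *N. nycticorax*, and 1.41, 0.511 and 1.04 TPM and 1.31, 0.581 and 0.456 TPM in *E. garzetta*. Here the species were ordered the other way, with 1 overlap, since nestling 3 of *N. nycticorax* lay just above adult 6 of *E. garzetta*.

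TRPM1, the cation channel of ON bipolar cells, had the highest mean of the synapse and channel genes described here in both species. It had 1.88, 0.385 and 0 TPM in nestlings and 0.269, 0 and 1.78 TPM in adults of *N. nycticorax*, and 0.638, 1.09 and 0.861 TPM against 1.02, 0.428 and 1.46 TPM in *E. garzetta*. The *N. nycticorax* birds were far apart whereas those of *E. garzetta* were all above 0, and the stages overlapped in both. SLC24A4, an exchanger of the same family as SLC24A1 that ends the odour response in mouse olfactory neurons, had 0.955, 0 and 0.666 TPM and 0.489, 0.743 and 1.28 TPM in *N. nycticorax*, and 1.09, 0.848 and 1.00 TPM and 0.481, 0.322 and 1.10 TPM in *E. garzetta*. It was above 0 in every bird but nestling 2 of *N. nycticorax*, a library that stood apart. The receptor genes DRD2 (dopamine), GABRR2 (GABA) and GLRA1 (glycine) were above 0 in 3, 4 and 6 birds, at no more than 0.340 TPM, and the gap junction gene GJA10 in 10.

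TH codes for tyrosine hydroxylase, the first enzyme of dopamine synthesis, which marks dopaminergic amacrine cells in the retina. It had 0, 0.0494 and 0.0307 TPM in nestlings and 0.349, 0.109 and 1.02 TPM in adults of *N. nycticorax*, and 0.280, 0 and 0.178 TPM against 0.410, 0.144 and 0.654 TPM in *E. garzetta*. Every *N. nycticorax* adult was above every nestling, although adult 5 rested on 1.93 read equivalents, whereas in *E. garzetta* adult 5 lay between the nestlings.

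The cut at 1 TPM did not fall in a gap between levels. The 3 genes just inside it were SLC24A4, MEGF11 and TRPM1, whose higher species mean was 0.807, 0.885 and 0.918 TPM, and the 3 just outside were RH1 (rhodopsin), CRYBB1 (a lens crystallin) and RPE65 (the isomerase of the visual cycle) at 1.03, 1.04 and 1.05 TPM. All 6 of these means were those of *E. garzetta*.

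Nestlings 1, 2 and 3 of *N. nycticorax* had 16, 19 and 21 of the 32 genes above 0, and its adults 4, 5 and 6 had 19, 15 and 20. The nestlings of *E. garzetta* had 20, 21 and 24, and its adults 21, 20 and 20. Per group this gave 18.7 ± 2.52 genes for the *N. nycticorax* nestlings, 18 ± 2.65 for its adults, 21.7 ± 2.08 for the *E. garzetta* nestlings and 20.3 ± 0.577 for its adults (SD, n = 3 birds each). The stages overlapped in both species. Among all genes below 1 TPM, 47.8% to 60.7% were above 0 per bird in *N. nycticorax* and 33.9% to 47.5% in *E. garzetta*, with the highest share in nestling 3 of each species, which also had the most of the 32 genes. The summed TPM of the 32 genes ran from 4.13 (nestling 2) to 13.4 (adult 6) in *N. nycticorax* and from 5.87 (adult 5) to 13.5 (adult 6) in *E. garzetta*. In the *N. nycticorax* sums, the model shared by GUCA1A and GUCA1C was counted once. The lowest sum of each species lay in the library that stood apart, and the highest in its adult 6.

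**Figure D2:**
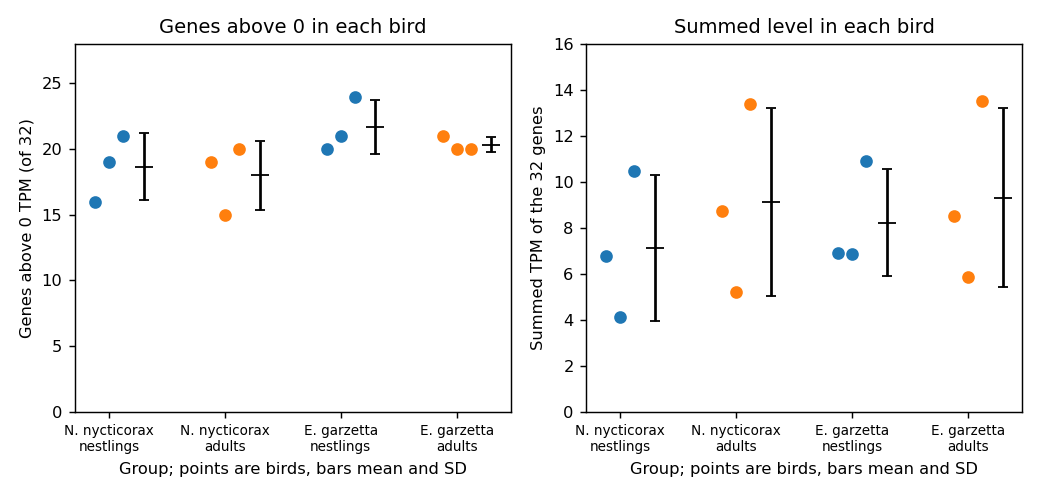
Number of the 32 genes above 0 TPM (left) and their summed TPM (right) in each bird, by species and stage, with the mean and SD of each group of 3 birds. Nestlings and adults overlap in both panels for both species. The model shared by GUCA1A and GUCA1C in *N. nycticorax* enters its sums once.

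The genes differed from each other in how regularly they were seen. In *N. nycticorax*, 3 of the 32 (CACNA1S, MEGF11 and PDE6B) were above 0 in all 6 birds, or 9.38%, against 18.5% of the 1760 genes below 1 TPM. In *E. garzetta*, 10 were, or 31.3%, against 11.5% of 4916 genes. Without the library that stood apart in each species, 4 and 12 of the genes were above 0 in all 5 remaining birds. The low genes of *E. garzetta* are mostly short models, with a median coding length of 165 bp against 1299 bp for the 32 genes, while the medians in *N. nycticorax* were 925.5 and 1248 bp. The part of this difference in length in the shares was not tested.

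**Figure D3:**
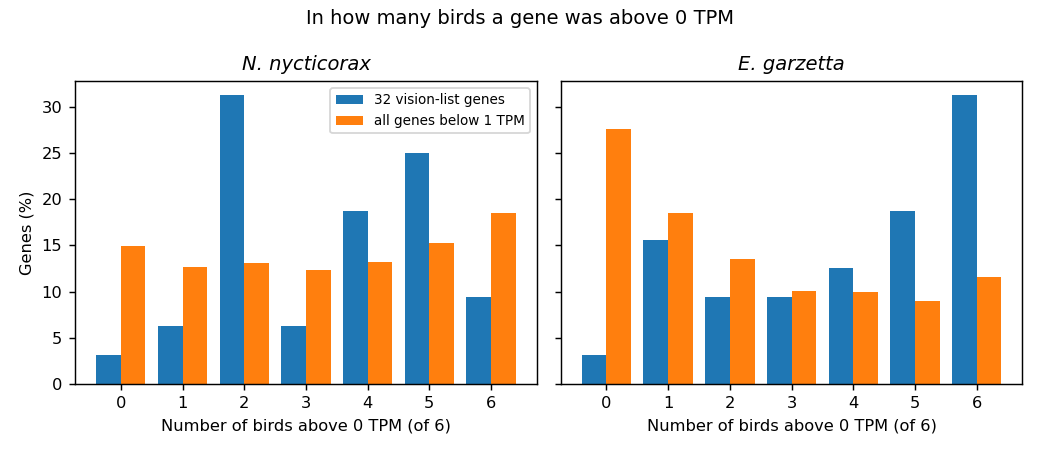
Share of the 32 genes and of all genes below 1 TPM (%) by the number of birds, from 0 to 6, in which they were above 0, for each species. In *E. garzetta* 31.3% of the 32 genes and 11.5% of all low genes were above 0 in all 6 birds, and in *N. nycticorax* 9.38% and 18.5%.

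The gene models of the 2 species were of like length for most of these genes. Coding lengths were within 1.2-fold of each other for 28 of the 32. The other 4 were TRPM1, STRA6, GUCY2F and OPN4. The *N. nycticorax* model of TRPM1 holds 300 bp in 2 exons (scaffold 2, 9687490 to 9688461) and that of *E. garzetta* 4917 bp in 26 exons (scaffold 287, 6379903 to 6426294), so that 3 read equivalents correspond to 0.520 to 0.919 TPM in the first and 0.0375 to 0.0533 TPM in the second. For STRA6 the models hold 285 bp in 2 exons and 1863 bp in 16, and for GUCY2F 1158 bp in 3 exons and 3084 bp in 17. OPN4 was the other way round, with 1551 and 1206 bp. The TPM of TRPM1 and STRA6 in *N. nycticorax*, which varied widely between birds, thus rested on 15.2 and 15.3 read equivalents in all, against 348 and 56.1 in *E. garzetta*.

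**Figure D4:**
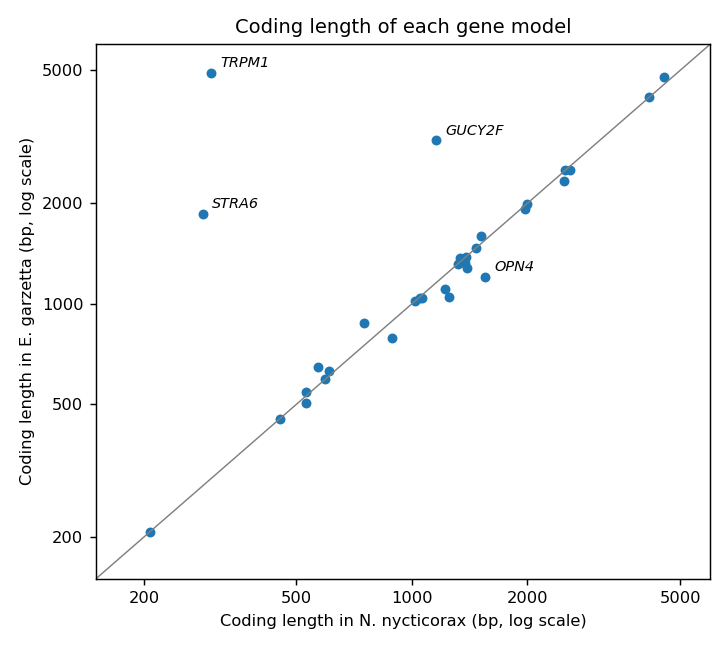
Coding length of the gene model of each of the 32 genes in *N. nycticorax* (horizontal axis) and *E. garzetta* (vertical axis), in bp on log scales, with the line of equal length. TRPM1, STRA6 and GUCY2F lie far above the line, with 300, 285 and 1158 bp against 4917, 1863 and 3084 bp.

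Where there were enough reads to look, their spread over the gene models varied. Among the gene models with more than 1 exon and at least 20 read equivalents, 6 of 12 had all their exons covered in *N. nycticorax* (the model shared by GUCA1A and GUCA1C counted once), as did 10 of 15 in *E. garzetta*. CACNA1S had reads on all 33 of its exons in *N. nycticorax*, TRPM1 on all 26 and GUCY2F on all 17 in *E. garzetta*. A single exon held more than 50% of the reads of 1 of the 12 (BFSP1) and 3 of the 15 (BFSP1, PITX3 and SLC24A1). The last exon of BFSP1 took 75.8% of the reads with 47.5% of the coding length in *N. nycticorax* and 77.4% with 46.2% in *E. garzetta*. That of PITX3 in *E. garzetta* took 84.1% with 64.0%. In SLC24A1 of *E. garzetta*, exon 8, with 8.38% of the coding length, took 70.1% of 21.5 read equivalents and was covered in all 6 birds, while 4 of its 9 exons were covered at all. Of the 10 genes with at least 20 read equivalents on several exons in both species, CACNA1S and HSF4 had the most reads on an exon of equal length in both (226 and 225 bp).

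The comparison of nestlings and adults asked whether these genes differ with the stage of the bird. None of the 32 passed the threshold of an adjusted p below 0.05 (limma on log2(TPM + 0.1)) in either species, out of 29 tested in *N. nycticorax* and 30 in *E. garzetta*, where 0.0% of 13042 and 0.0% of 14960 genes passed. At an unadjusted p below 0.05 there was 1 of the 29 in *N. nycticorax*, where 924 of all genes (7.08%) and 5.27% of the genes below 1 TPM were past it, and 0 of the 30 in *E. garzetta*, against 348 (2.33%) and 2.95%. Left out for a mean below 0.02 TPM were 3 genes in *N. nycticorax*, PDE6C and RORB among them, and GNAT1 and RGR in *E. garzetta*. Leaving out nestling 1 gave 6 called genes among all genes in *N. nycticorax* and 1 in *E. garzetta*, with none of the 32 among them.

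The gene past the unadjusted p was TH in *N. nycticorax*, with a log2 difference, nestlings minus adults, of -1.92 (SE 0.74, adjusted p = 0.573 in limma, between 0.265 and 0.816 over the alternatives). All genes of *N. nycticorax* had a median log2 difference of -0.45, which was -0.12 without nestling 2. With 1 bird of *N. nycticorax* left out, TH was past the unadjusted p only without adult 5 (-2.50) and missed it in the other 5 cases, with the smallest difference, -1.29, without adult 6. After rescaling of the birds by median ratios the median was -0.02 and TH had -1.61 (adjusted p = 0.577 in limma, with the unadjusted p no longer below 0.05). In *E. garzetta* TH had a log2 difference of -1.05 (SE 0.75, adjusted p = 0.965, limma). The photoreceptor marker list, 9 measured genes of which 6 are among the 32, summed to 3.48 to 23.7 TPM in nestlings and 17.3 to 33.6 TPM in adults of *N. nycticorax*, and its part in the value of TH was not tested.

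The next smallest p in *N. nycticorax* belonged to PDE6H, SLC24A1, OPNP and DRD2, with log2 differences of -1.94 (SE 0.87), -1.40 (SE 0.66), -1.56 (SE 0.75) and 1.30 (SE 0.69). PDE6H was at 0 in all nestlings and DRD2 in all adults, so that their fitted differences depend on the added 0.1 TPM and are no bound, and the 2 adult values of PDE6H lay under the TPM that 3 read equivalents give. In *E. garzetta* the 5 smallest p belonged to VSX1 at 1.67 (SE 0.79), HSF4 at -1.13 (SE 0.56), STRA6 at -1.16 (SE 0.59), PDE6B at 1.19 (SE 0.79) and TH at -1.05. The adjusted p was 0.573 for each of the former and 0.965 for each of the latter (limma). None of these differences passed the threshold after adjustment over all genes tested. Single birds moved them: PDE6H had -2.92 without adult 5 and DRD2 1.95 without nestling 1 of *N. nycticorax*. In *E. garzetta* PDE6B ran from 0.67 (without adult 6) to 1.86 (without adult 4) and TH from -1.50 (without adult 5) to -0.48 (without nestling 2).

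The 32 genes were split between both directions. In *N. nycticorax* 13 were fitted higher and 16 lower in nestlings, with a median log2 difference of -0.15 against -0.45 over all genes and -0.09 over the genes below 1 TPM. GUCA1A and GUCA1C, which share 1 model in this species, are 2 of the 13. In *E. garzetta* 16 were fitted higher and 14 lower, with a median of 0.01 against 0.14 over all genes and 0.01 over the low genes. Rescaling turned the splits to 15 and 14 in *N. nycticorax* and 13 and 17 in *E. garzetta*, with medians of 0.06 and -0.05, while the share of all genes fitted higher in nestlings moved from 27.7% to 48.8% and from 64.2% to 51.8%. A group was wholly at 0 for 6 of the genes tested in *N. nycticorax* and 4 in *E. garzetta*. With these held at the bound that 3 read equivalents per bird give, the medians were -0.01 and 0.00.

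**Figure D5:**
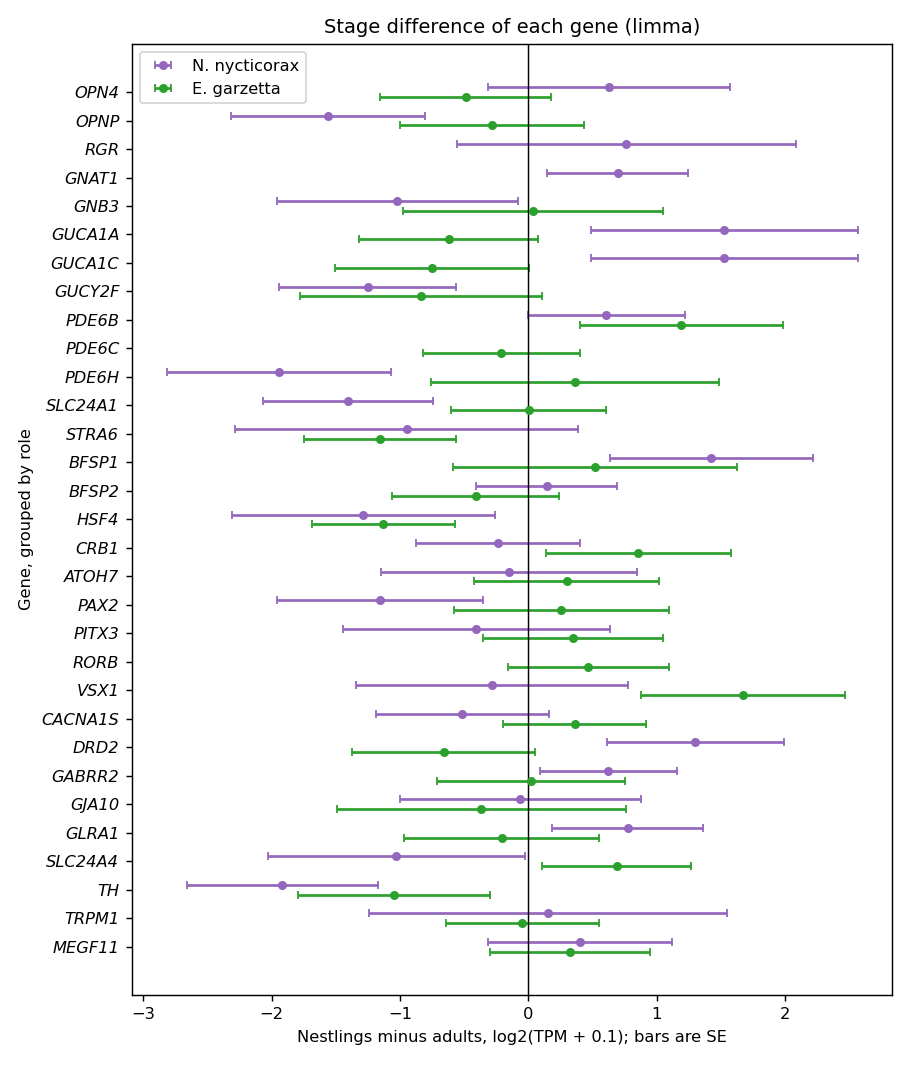
Difference between nestlings and adults in log2(TPM + 0.1) for 31 of the 32 genes (rows) and both species (colours), with SE from limma. Points lie on both sides of 0 in both species, and the genes that did not reach a mean of 0.02 TPM have no point.

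Without a model, every adult was above every nestling for TH and SLC24A1 in *N. nycticorax*, where this held for 15.5% of all genes and 6.14% of the genes below 1 TPM. It held for HSF4 and STRA6 in *E. garzetta*, against 1.71% and 1.85%. Every nestling was above every adult for none of the 32, against 3.77% and 2.27% in *N. nycticorax* and 5.09% and 1.69% in *E. garzetta*. No gene had separate stages in both species. The count of 2 in *N. nycticorax* was 7 without adult 5, and the count of 2 in *E. garzetta* was 4 without its adult 5, when fewer birds had to be in order. The count of 0 rose to as many as 3 in *N. nycticorax* (without nestling 3) and 2 in *E. garzetta* (without nestling 1 or adult 4).

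None of the other paired genes of the same roles passed the stage test either. Of the 8 other phototransduction genes, 1 was past an unadjusted p below 0.05 in *N. nycticorax*, with a positive difference, and 0 in *E. garzetta*. The 7 other lens genes had 1 past it in *N. nycticorax*, the 18 other transcription factors 2, the 12 other genes of matrix and cornea 2 and the 5 other synapse and channel genes 1, all with negative differences. The 10 other genes of photoreceptor structure, the 4 other retinoid genes and the 1 other opsin had 0, and in *E. garzetta* all of these lists had 0 (limma, 0 with an adjusted p below 0.05 in each list). Over all genes, 924 (7.08%) were past the unadjusted p in *N. nycticorax* and 348 (2.33%) in *E. garzetta*. Those of *N. nycticorax* had 785 negative and 139 positive differences, or 498 and 449 after median-ratio rescaling.

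The stage effect was then compared between the species over the 245 paired genes. None of the 32 differed at an adjusted p below 0.05 (limma, interaction), nor did any of the 245 (0.0%), of which 11 (4.49%) were past an unadjusted p of 0.05. Among the 32 this was DRD2, the dopamine D2 receptor, with a difference between the stage effects of -1.96 on the log2 scale, *E. garzetta* minus *N. nycticorax* (SE 0.86, adjusted p = 0.502, between 0.157 and 0.669 over the alternatives). Its values were 0, 0.239 and 0.340 TPM in nestlings and 0 in the adults of *N. nycticorax*, and 0 in 5 birds and 0.294 TPM in adult 6 of *E. garzetta*. It was thus above 0 in 3 of the 12 birds, with 6.14, 6.38 and 4.80 read equivalents. With each of the 12 birds left out in turn, DRD2 was past the unadjusted p in 3 cases (without nestling 1 of *N. nycticorax*, adult 4 or adult 5 of *E. garzetta*) and missed it in 9. Its difference then ran from -2.61, without nestling 1 of *N. nycticorax*, to -1.30, without adult 6 of *E. garzetta*.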

How the data were processed

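The members and the lists of roles and markers were chosen with earlier results of these data known. The authors trimmed 150 bp read pairs with Trimmomatic, aligned them to the genome of the species with HISAT2 (version not given in the sources used here) and ran StringTie 2.1.4 on the annotated transcripts, bird by bird. The TPM values that the authors deposited sum to 1000000 per bird. The deposited FPKM values come from the same runs and were used for no result. The deposited coverage, a per-base signal without correction for depth, gave the read equivalents and the exon values. Gene symbols came from the paper's list of vision genes, where 266 identifiers of *N. nycticorax* and 257 of *E. garzetta* were found. Positions are on the scaffolds of the deposited files. A later merging of birds by the authors was not repeated.

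Nestlings and adults were compared in each species by limma 3.58.1, run in R 4.3.3 (lmFit, eBayes with trend, two-sided). The values were log2(TPM + 0.1), genes with a mean under 0.02 TPM were left out, and Benjamini-Hochberg adjustment covered all genes tested. A fold on this scale understates the change of low genes. The interaction was fitted over the 245 paired genes. The fit was tested on simulated data, with changes planted only in genes whose mean log2(TPM + 0.1) was above 0. The members lie below that level, so the simulation does not show whether changes in them would be found. The labels name separate birds, so p-values measure the spread between birds. Alternatives were the added constant (0.01 or 1 TPM), no filter or a mean of 0.2 TPM, median-ratio rescaling, robust eBayes, a block on bird number, and each bird left out, and, chosen after seeing the data, leaving out both libraries that stood apart. Named genes are all opsin and phototransduction members, the highest member of each role in each species, members above 0 in all 12 birds, those with the 5 smallest p, those next to 1 TPM and those that share an identifier. Other members were named after their values were seen. The values of 1 member are not reported here by gene, and it is counted in the totals. Python 3.11.15 with pandas 2.3.3, numpy 2.4.6 and matplotlib 3.10.9 was used for the tables and plots.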

Additional observations from a re-analysis of the deposited data

How the results depend on the processing

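None of the 32 genes was called in either species under any alternative of the stage test, and none in the comparison of the species. Among all genes, 1 was called in each species without a filter on low values, and 0 to 6 (*N. nycticorax*) and 0 to 1 (*E. garzetta*) with 1 bird left out. The number of the 32 genes past an unadjusted p of 0.05 was 1 in *N. nycticorax* and became 0 with 1 TPM added and after rescaling, 2 without a filter, and 1 to 3 with 1 bird left out. These were not the same genes: TH was past it in 1 of the 6 fits with a bird left out, and the smallest p lay with DRD2, OPNP, HSF4, GUCY2F, PDE6H and GUCA1A without birds 1 to 6 in turn. In *E. garzetta* it was 0 and became 1 with 1 TPM added, 2 without a filter, and 0 to 2 with 1 bird left out. In the comparison of the species it was 1 and became 0 with 1 TPM added, 0 to 2 with 1 bird left out (DRD2 in 3 of 12 such fits) and 3 with a block on bird number. Birds of different species share only a number in the labels, and the deviations of birds with the same number correlated at -0.13 to 0.29. Adults 4, 5 and 6 (0.06, 0.28 and 0.29) each correlated best with their own number, and no nestling did. Whether birds of 1 number share an effect was not tested. Rescaling put every nestling above every adult for 1 gene in *N. nycticorax*. With 1 bird left out this held for 1 to 3 genes there and 0 to 2 in *E. garzetta*, and every adult was above every nestling for 2 to 7 and 2 to 4.

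The selection gave 21 genes with a limit of 0.5 TPM, 42 with 2 TPM, 36 with the median in place of the mean and 31 with each shared identifier counted once. With at least 2 read equivalents asked for, 14.7 and 14.3 genes per bird were seen in nestlings and adults of *N. nycticorax* and 16.7 in both groups of *E. garzetta*. With at least 0.1 TPM these were 14.3, 16.3, 18.3 and 17.3. Depth limits what can be seen: most values of these genes rest on fewer than 20 read equivalents, and groups of 3 birds leave wide errors.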
